A study of Mus musculus with 8 samples.

Results

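The Wnt ligands, their receptors and co-receptors, the secreted Wnt antagonists and the R-spondins were examined in the prostate of mice that lack *Olfm4*, the gene of the secreted glycoprotein olfactomedin 4. Members were chosen by gene symbol alone: every *Wnt*, *Fzd*, *Sfrp* and *Dkk* gene that had a probe set of its own on the array, together with *Lrp5*, *Lrp6*, *Ror1*, *Ror2*, *Ryk*, *Wif1*, *Frzb*, *Rspo1*, *Rspo2* and *Rspo3*. This gave 47 of 18193 genes and 92 of 45037 probe sets. They comprised 19 ligands, 15 receptors and co-receptors, 10 secreted antagonists and 3 R-spondins. All 19 Wnt genes and all 10 Frizzled genes of the RefSeq mouse annotation were measured.

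Total RNA from whole prostate of *Olfm4*-knockout (*Olfm4*-/-) and wild-type (*Olfm4*+/+) mice was hybridised to genome-wide Affymetrix mouse arrays, 4 per genotype. All mice were 3 months old, were of a mixed strain (50% 129/SV, with National Institutes of Health Black Swiss making up the other 50%), and received no treatment that the labels name. The knockout line was kept by crossing heterozygotes, so the loss of the gene is not limited to the prostate. The labels number 4 samples per genotype, taken here as 4 mice, where the methods name more, the labels name Trizol where the methods name a column kit for the RNA, and arrays of older mice were not analysed here.

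The array values are on the log2 scale, so a difference of 1 is a doubling of signal, and they can be compared between arrays for a given probe set but not between probe sets. Both genotypes were split evenly over 2 array days (day 1: knockout arrays 3 and 4, wild-type arrays 1 and 4), and array medians lay between 6.03 and 6.09. *Olfm4* itself read 3.09, 3.00, 3.25 and 3.09 on knockout arrays 1 to 4 and 10.32, 10.23, 10.74 and 10.65 on wild-type arrays 1 to 4, so every array matched its label. Luminal prostate markers were strong on all arrays, with a list mean between 13.38 and 13.47 over 7 genes. Knockout array 1 and wild-type array 1 stood apart from the rest: their mean over 6 seminal vesicle genes was 13.81 and 14.15, against 7.88 to 10.04 on the other arrays. Adipose markers were also highest on these arrays, at 9.45 and 10.40 against 6.27 to 7.84 elsewhere. Members whose unadjusted p crossed 0.05 without this pair of arrays are therefore also given without it, as are a few others. The pair was left out after the data were seen and these members were picked by that p, so such p-values are descriptions only. No share of all genes stands beside them, and without the pair the genotypes are no longer split evenly over the days. In whole tissue, a change in the number of cells of a type and a change of RNA per cell cannot be told apart.

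Wnt proteins are secreted lipid-modified ligands that bind Frizzled receptors. Together with the co-receptors Lrp5 and Lrp6 they stabilise beta-catenin, which then activates target genes with the DNA-binding factors of the TCF/LEF family. Other Wnts, of which Wnt5a is the best known, also act through Ror2 and Ryk without beta-catenin, on cell polarity and the cytoskeleton. Sfrp proteins, Wif1 and Frzb bind Wnts outside the cell, Dkk1 blocks Lrp5 and Lrp6, and R-spondins raise the number of receptors at the surface. In the prostate, Wnt signals pass between stroma and epithelium during budding and branching, and Wnt5a is made by the stroma around growing buds.

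*Wnt5b*, close kin of *Wnt5a*, was the member with the smallest p, and is therefore shown here with the sequence upstream of its start sites. RefSeq lists 3 start sites in the windows used, all on the minus strand of chromosome 6 (GRCm38.p6). The 250 bases before each are given 5′ to 3′ along the gene, in lower case. Capitals mark the letters CTTTGA, the core that TCF/LEF factors recognise, which was searched for on both strands (TCAAAG on the opposite strand) as the only motif.

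Wnt5b window at chr6:119449387-119449636: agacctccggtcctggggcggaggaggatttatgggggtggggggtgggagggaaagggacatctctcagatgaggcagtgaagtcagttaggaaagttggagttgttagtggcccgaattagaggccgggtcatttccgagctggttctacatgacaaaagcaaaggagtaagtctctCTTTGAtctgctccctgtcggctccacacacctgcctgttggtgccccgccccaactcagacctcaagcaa
Wnt5b window at chr6:119467212-119467461: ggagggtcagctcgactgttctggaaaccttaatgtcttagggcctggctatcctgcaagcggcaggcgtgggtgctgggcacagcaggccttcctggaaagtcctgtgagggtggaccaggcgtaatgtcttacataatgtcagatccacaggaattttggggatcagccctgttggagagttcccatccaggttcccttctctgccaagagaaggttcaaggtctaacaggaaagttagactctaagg
Wnt5b window at chr6:119544348-119544597: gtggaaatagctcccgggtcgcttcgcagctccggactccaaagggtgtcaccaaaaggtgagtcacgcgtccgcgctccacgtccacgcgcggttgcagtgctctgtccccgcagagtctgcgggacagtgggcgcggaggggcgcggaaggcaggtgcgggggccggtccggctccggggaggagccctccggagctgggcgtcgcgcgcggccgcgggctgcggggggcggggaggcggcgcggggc

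The first window held 1 match, which began 71 bases before the start, and the others held none of these letters. Of 34 windows found for 31 of the members, 6 held a match (17.6%), those of *Dkk1*, *Frzb*, *Fzd1*, *Ror1*, *Wnt11* and *Wnt5b*. Over all 32851 mouse windows the share was 13.8%. A match of 6 letters is a description of the sequence and not a binding site.

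The comparison asked whether prostate without *Olfm4* held different amounts of the transcripts that carry Wnt signals between cells. No member probe set passed an adjusted p of 0.05 in limma, against 50 probe sets (0.111%) on the whole array, and the smallest adjusted p of a member was 0.157. At an unadjusted p under 0.05, 13 of the 92 member probe sets differed, 5 of them higher in knockout prostate and 8 lower, where the background over all probe sets was 12.8%. All knockout arrays lay above all wild-type arrays for 2 member probe sets (3.69% over the array) and below them for 3 (5.03% over the array). With each gene represented by its brightest probe set, the one with the highest mean over the 8 arrays, 3 members had a higher mean at that threshold (*Wnt5a*, *Wnt8b* and *Sfrp4*, 6.38%) and 3 a lower mean (*Wnt5b*, *Lrp5* and *Fzd2*, 6.38%). Over all genes, 6.27% were higher and 8.49% lower, so both shares lay near or under the background.

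The members as a group sat close to no difference. In knockout prostate the mean was higher for 25 of the 47 genes and lower for 22. Their median log2 fold change was 0.02, against -0.01 over all genes, and their median absolute log2 fold change was 0.10, against 0.11. For 38 members the log2 fold change lay within 0.25 of zero. The median half-width of the 95% confidence interval was 0.28 for the members and 0.23 over all genes, so that differences of the size seen for most members were not detectable with 4 arrays per genotype. The brightest probe set of 9 members had a mean under 5, near the background of the array: *Dkk1*, *Dkk4*, *Fzd10*, *Ror1*, *Wnt1*, *Wnt2b*, *Wnt3*, *Wnt8a* and *Wnt8b*.

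**Figure D1:**
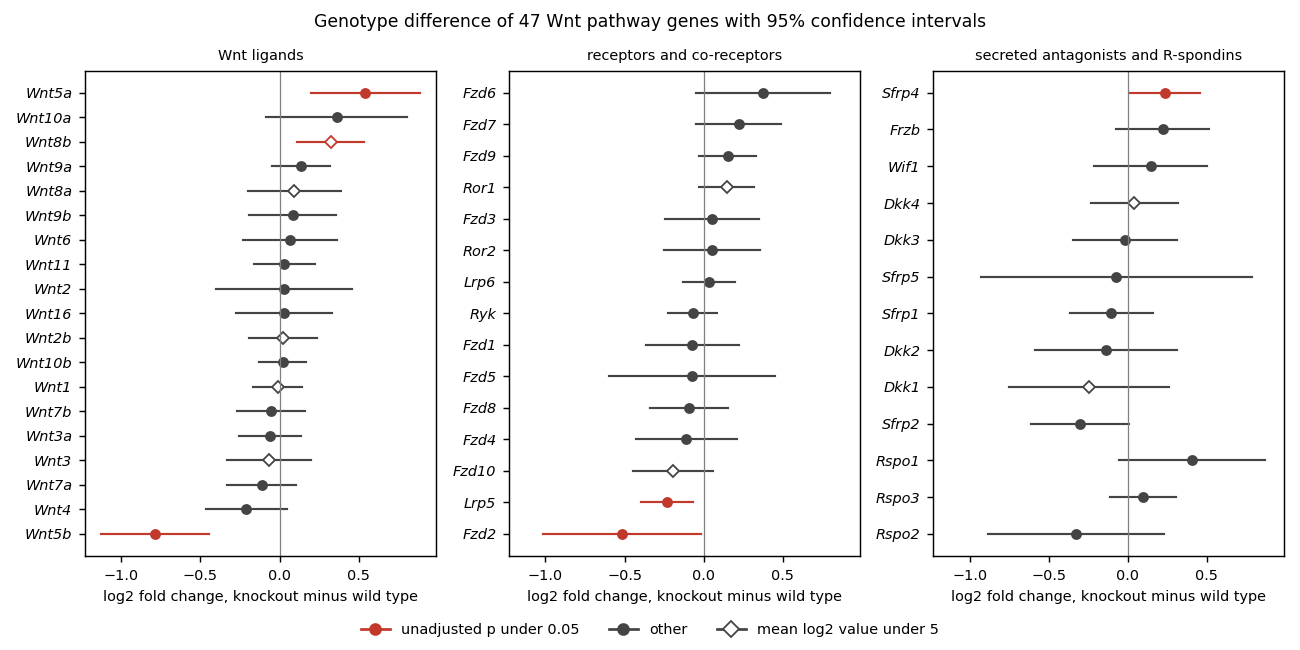
Log2 fold change (knockout minus wild type, x axis, log2 units) of the brightest probe set of each of the 47 members, in 3 panels by role, with 95% confidence intervals from limma. Red marks an unadjusted p under 0.05 and open diamonds a mean log2 value under 5; *Wnt5b* lies lowest at -0.79 and *Wnt5a* highest at 0.54, and most intervals cross zero.

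Among the ligands, *Wnt5b* and *Wnt5a* had the largest differences, in opposite directions. *Wnt5b* read 7.95, 8.08, 8.05 and 8.19 on knockout arrays 1 to 4 and 9.27, 8.55, 8.37 and 9.23 on wild-type arrays 1 to 4. No knockout array reached the lowest wild-type array, the knockout values lay close together, and wild-type arrays 1 and 4, both run on day 1, were the highest. Knockout prostate had a mean of 8.07 ± 0.099 (SD, n = 4). The wild-type mean was 8.86 ± 0.47 (SD, n = 4), which gives a log2 fold change of -0.79 (95% confidence interval -1.13 to -0.45) or 1.73 times more signal in wild type. Its adjusted p in limma was 0.157 (unadjusted 0.00083). An exact permutation test over the arrays, which took no account of array day, gave p = 0.0286 (2-sided). That is the smallest value that 4 arrays against 4 allow in such a test. Among all genes, 6.29% had every knockout array below every wild-type array.

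A second *Wnt5b* probe set had the same direction. It read 6.83, 6.92, 6.98 and 6.96 on the knockout arrays and 7.88, 7.20, 6.87 and 7.88 on the wild-type arrays, with a log2 fold change of -0.54 (limma, unadjusted p = 0.0112, adjusted p = 0.279). Here wild-type array 3 lay among the knockout arrays, so the genotypes overlapped, and wild-type arrays 1 and 4 were again the highest. The first probe set is of the kind whose probes can also bind other transcripts (suffix x_at), whereas the second targets several transcripts of the gene (suffix a_at).

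The *Wnt5b* difference was larger on day 1, although the test of the days did not pass after adjustment. It was -1.13 on day 1 and -0.44 on day 2 for the brightest probe set, and -0.91 and -0.16 for the second. The difference between days, a comparison chosen after seeing the data, was 0.69 for the first (limma interaction term, unadjusted p = 0.00352, adjusted p = 0.890). Without knockout array 1 and wild-type array 1 the log2 fold change was -0.74 (unadjusted p = 0.00588).

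*Wnt5a*, a ligand of the stroma, read 8.15, 7.88, 7.38 and 7.57 on knockout arrays 1 to 4 and 7.40, 7.28, 7.14 and 6.99 on wild-type arrays 1 to 4. Knockout array 3 lay just below wild-type array 1, and the other 3 knockout arrays lay above all wild-type arrays. The log2 fold change was 0.54 (95% confidence interval 0.20 to 0.89, limma unadjusted p = 0.00711, adjusted p = 0.257). The exact permutation test over arrays without array day gave p = 0.0571 (2-sided). Without knockout array 1 and wild-type array 1 the log2 fold change was 0.58 (limma, unadjusted p = 0.00138, adjusted p = 0.185). By day, with all arrays, the difference was 0.28 on day 1, where the limma unadjusted p was 0.181, and 0.80 on day 2. The larger *Wnt5a* difference thus fell on day 2 and the larger *Wnt5b* difference on day 1, and the differences of both kept their direction on either day.

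Of the 3 other *Wnt5a* probe sets, 1 had every knockout array above every wild-type array. It ranged from 5.39 to 5.77 in knockout and from 5.09 to 5.38 in wild-type prostate (log2 fold change 0.32, limma unadjusted p = 0.0201, adjusted p = 0.311). Another had a log2 fold change of 0.31 with overlapping genotypes (limma unadjusted p = 0.0425, adjusted p = 0.372). The last, near background with values from 2.99 to 3.28, had one of -0.0042. *Wnt5a* lies on chromosome 14, as *Olfm4* does, with 453 of the 641 measured genes of that chromosome between them. *Wnt5b* lies on chromosome 6.

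**Figure D2:**
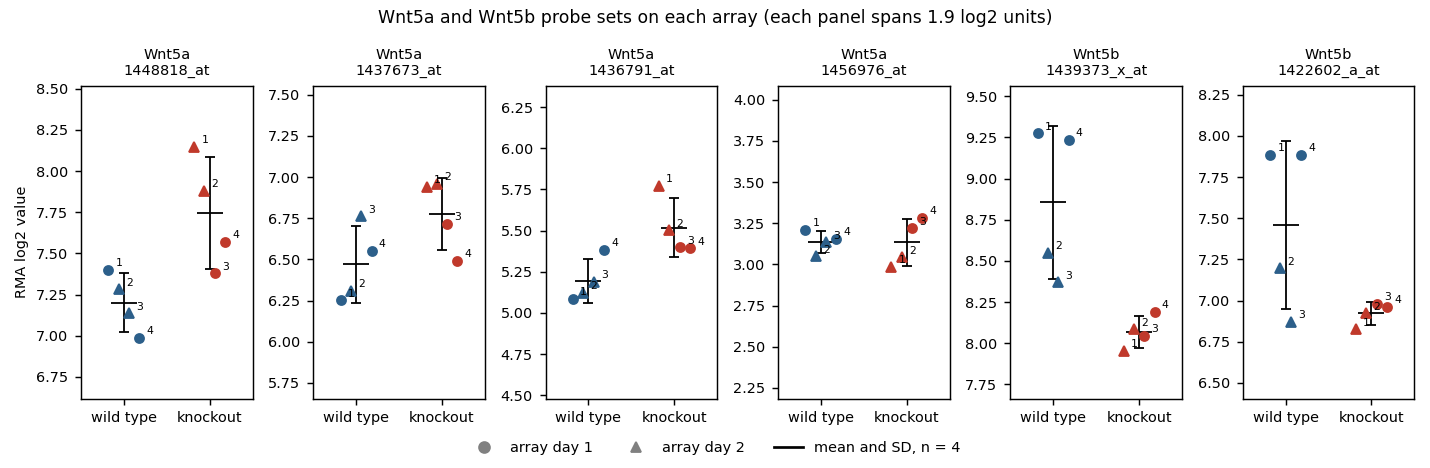
RMA log2 value (y axis) of the 4 *Wnt5a* and 2 *Wnt5b* probe sets on each array, wild type in blue and knockout in red, numbered by array, with circles for day 1, triangles for day 2 and bars for mean and SD (n = 4). All panels span the same number of log2 units. The knockout mean lies lower for the *Wnt5b* probe sets, with wild-type arrays 1 and 4 highest, and higher for 3 of the 4 *Wnt5a* probe sets. Single arrays of the genotypes overlap except for the brightest *Wnt5b* probe set and 1 *Wnt5a* probe set.

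*Wnt8b*, a ligand known from the developing brain, read between 4.59 and 4.66 on the knockout arrays and between 4.10 and 4.49 on the wild-type arrays. All knockout arrays lay above all wild-type arrays, as did those of 4.49% of all genes, but at a level near background (log2 fold change 0.32, limma adjusted p = 0.263). The other *Wnt8b* probe sets had log2 fold changes of -0.05 and -0.16, and the mean of all its probe sets differed by 0.04 (unadjusted p = 0.613).

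*Wnt2*, a ligand of stromal cells in several organs, had the brightest probe set of any ligand besides *Wnt5b*. It read 8.44, 8.08, 8.25 and 8.16 on the knockout arrays and 8.02, 8.41, 7.79 and 8.60 on the wild-type arrays. The knockout values lay within the wild-type range, and the log2 fold change of 0.03 (95% confidence interval -0.40 to 0.46) turned negative in 6 of 22 alternative analyses.

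The remaining 15 ligands had log2 fold changes between -0.21 (*Wnt4*) and 0.36 (*Wnt10a*), none at an unadjusted p under 0.05 with all arrays. *Wnt4*, a ligand of epithelial branching in other glands, had a second probe set at -0.28 (limma, unadjusted p = 0.0296, adjusted p = 0.341), and the direction was the same on both days for both probe sets. *Wnt10a* ranged from 6.26 to 6.83 in knockout and from 5.75 to 6.49 in wild-type prostate, with wild-type array 3 the lowest. *Wnt7a* gave -0.11 with all arrays and -0.23 without arrays 1 of both genotypes (limma, unadjusted p = 0.0472, adjusted p = 0.371). For *Wnt16* the difference was 0.31 on day 1 and -0.26 on day 2 (interaction term, unadjusted p = 0.0120, adjusted p = 0.890).

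In knockout prostate 7 of the 15 receptors and co-receptors were higher on average and 8 lower. The 2 with an unadjusted p under 0.05 were lower (13.3%, beside 8.49% of all genes), and none was higher (beside 6.27%). *Lrp5*, a co-receptor of the beta-catenin branch, read 8.68, 8.73, 8.93 and 8.93 on the knockout arrays and 9.06, 9.10, 8.96 and 9.06 on the wild-type arrays. No knockout array reached the lowest wild-type array, although knockout arrays 3 and 4 came close to wild-type array 3. Its log2 fold change was -0.23 (95% confidence interval -0.39 to -0.07, limma adjusted p = 0.283, unadjusted p = 0.0126). The difference was -0.13 on day 1 and -0.33 on day 2, and without knockout array 1 and wild-type array 1 it was -0.22 with an unadjusted p of 0.0544.

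*Lrp6*, the partner co-receptor, read 11.85, 11.97, 12.09 and 11.96 on the knockout arrays and 11.90, 11.94, 11.98 and 11.91 on the wild-type arrays. The genotypes overlapped throughout, with a log2 fold change of 0.03 (95% confidence interval -0.13 to 0.20). A second *Lrp6* probe set gave -0.17 on the log2 scale (unadjusted p = 0.0969), so the direction for this gene differed between its probe sets.

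*Fzd2*, a Frizzled receptor that can bind Wnt5a, read 10.83, 10.49, 9.71 and 10.56 on the knockout arrays and 10.84, 10.94, 10.81 and 11.07 on the wild-type arrays. Knockout array 3 lay far below all other arrays, and knockout array 1 lay within the wild-type range. The log2 fold change was -0.52 (95% confidence interval -1.02 to -0.02, limma adjusted p = 0.376), and the unadjusted p stayed under 0.05 in 12 of 22 alternative analyses. Without knockout array 3 the log2 fold change was -0.29 (unadjusted p = 0.0483), and the unadjusted p rose above 0.05 without knockout array 2 or wild-type array 1, 2 or 4. The same knockout array 3 was the highest for skeletal muscle markers, at 9.42 against 7.25 to 8.06 on the others, and the part of this in the *Fzd2* value was not tested. Other *Fzd2* probe sets had log2 fold changes of -0.03 and -0.13.

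Other Frizzled genes had no brightest probe set at an unadjusted p under 0.05 when all arrays were used. *Fzd6* and *Fzd7* had the highest log2 fold changes, 0.37 and 0.22. A second *Fzd6* probe set gave 0.38, and knockout array 1 was the lowest knockout array on both. Without knockout array 1 the brightest probe sets of *Fzd6* and *Fzd7* gave 0.54 and 0.30 (limma, unadjusted p = 0.00752 and 0.0306), and without wild-type array 1 as well they gave 0.64 and 0.22 (unadjusted p = 0.00452 and 0.0907, adjusted p = 0.216 and 0.448). For *Fzd4*, a receptor of vascular tissue, the brightest probe set gave -0.11 and a second one -0.40 (limma, unadjusted p = 0.0495, adjusted p = 0.389). Without both arrays 1 the brightest *Fzd4* probe set gave -0.25 (unadjusted p = 0.0461, adjusted p = 0.369). *Fzd5* differed by 0.38 on day 1 and by -0.52 on day 2, and knockout array 1 read 8.35 where the other arrays read 8.82 to 9.40. *Ror1*, *Ror2* and *Ryk*, the receptors of the polarity branch, had log2 fold changes of 0.15, 0.05 and -0.07.

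**Figure D3:**
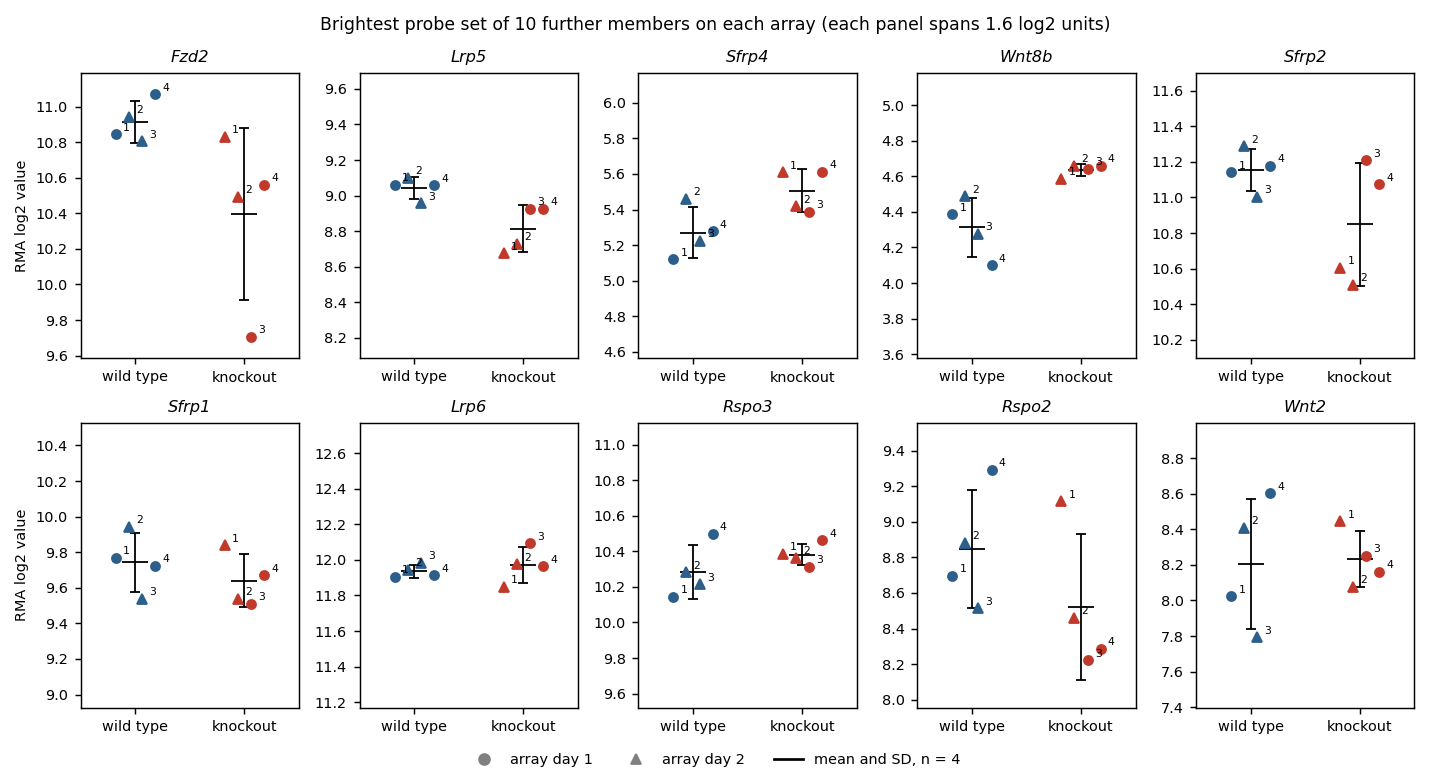
RMA log2 value (y axis) on each array of 10 further members, the others with an unadjusted p under 0.05 or among the brightest of their role, wild type in blue and knockout in red, numbered by array, with circles for day 1, triangles for day 2 and bars for mean and SD (n = 4). All panels span the same number of log2 units; *Lrp5* and *Wnt8b* do not overlap between genotypes, and knockout array 3 of *Fzd2* stands alone at 9.71.

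Of 10 secreted antagonists, 4 were higher on average in knockout prostate and 6 lower. Only 1 had an unadjusted p under 0.05, and it was higher (10%, beside 6.27% of all genes), with none lower (beside 8.49%). *Sfrp4*, which binds Wnts outside the cell, read 5.61, 5.42, 5.39 and 5.61 on the knockout arrays and 5.12, 5.46, 5.22 and 5.28 on the wild-type arrays. Wild-type array 2 lay among the knockout arrays, and the log2 fold change was 0.24 (95% confidence interval 0.02 to 0.46, limma adjusted p = 0.365, unadjusted p = 0.0393). Without knockout array 1 and wild-type array 1 it was 0.15 with an unadjusted p of 0.240, and the unadjusted p was under 0.05 in 10 of 21 alternative analyses. Leaving out knockout arrays 1 or 4 raised the unadjusted p above 0.05, as did leaving out wild-type arrays 1, 3 or 4, each singly.

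*Sfrp2*, a product of stromal fibroblasts, read 10.60, 10.51, 11.21 and 11.07 on the knockout arrays and 11.14, 11.29, 11.00 and 11.18 on the wild-type arrays. Knockout arrays 1 and 2, both run on day 2, were the lowest, while knockout arrays 3 and 4 lay within the wild-type range. The log2 fold change was -0.30 over both days (limma adjusted p = 0.398), -0.02 on day 1 and -0.59 on day 2 (interaction term, unadjusted p = 0.0148, adjusted p = 0.890).

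Related antagonists differed less. *Sfrp1* read 9.84, 9.54, 9.51 and 9.67 on the knockout arrays and 9.77, 9.94, 9.54 and 9.72 on the wild-type arrays, a log2 fold change of -0.10. All 5 *Sfrp1* probe sets had a negative log2 fold change, from -0.23 to -0.04, and none had an unadjusted p under 0.05. *Sfrp5* read 6.83 on knockout array 1 and 6.80 on wild-type array 1, against 5.55 to 6.05 on the other 6 arrays. It was thus highest on the arrays with the most seminal vesicle and adipose marker signal, and its genotype difference was -0.07. For a second *Sfrp5* probe set all knockout arrays lay below all wild-type arrays (log2 fold change -0.22, limma unadjusted p = 0.0200, adjusted p = 0.311).

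The other antagonists had log2 fold changes between -0.24 (*Dkk1*) and 0.22 (*Frzb*). *Wif1* gave 0.14, *Dkk2* -0.14, *Dkk3* -0.02 and *Dkk4* 0.04. Without knockout array 1 and wild-type array 1, *Wif1* gave 0.37 (limma, unadjusted p = 0.0275, adjusted p = 0.325) and *Dkk2* -0.47 (unadjusted p = 0.00816, adjusted p = 0.249). For *Frzb* a second probe set, near background, gave -0.18 (limma, unadjusted p = 0.0454, adjusted p = 0.380), opposite to the first.

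R-spondins amplify Wnt signals at the receptor. *Rspo3* read 10.39, 10.37, 10.31 and 10.46 on the knockout arrays and 10.15, 10.28, 10.21 and 10.50 on the wild-type arrays, with overlapping genotypes and a log2 fold change of 0.10 (unadjusted p = 0.315). *Rspo2* read 9.12, 8.46, 8.22 and 8.29 on the knockout arrays and 8.70, 8.88, 8.51 and 9.29 on the wild-type arrays. All knockout arrays but the first lay below all wild-type arrays.

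The *Rspo2* value moved with knockout array 1. The log2 fold change was -0.33 (unadjusted p = 0.211) with all arrays, -0.54 (unadjusted p = 0.0239) without knockout array 1, and -0.64 (unadjusted p = 0.0198, limma adjusted p = 0.297) without wild-type array 1 as well. By day it was -0.74 on day 1 and 0.09 on day 2. *Rspo1* differed by 0.41 on the log2 scale (unadjusted p = 0.0760), with knockout array 1 the highest at 5.77, and by 0.22 without both arrays 1 (unadjusted p = 0.142).

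Single arrays held the extreme values of many members. Knockout array 1 held the highest value for 12 of the 47 members (25.5%) and the lowest for 10. Over all genes it held the highest value for 17.7% and the lowest for 21.9%, so its count of lowest values among the members lay near the share over all genes. Of the 47 members, 30 had the same sign of difference on both days, while 59.2% of all genes did. Among the 29 members with several probe sets, the probe sets of 7 had a single sign: *Fzd2*, *Fzd7*, *Fzd8*, *Sfrp1*, *Sfrp5*, *Wnt4* and *Wnt5b*.

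**Figure D4:**
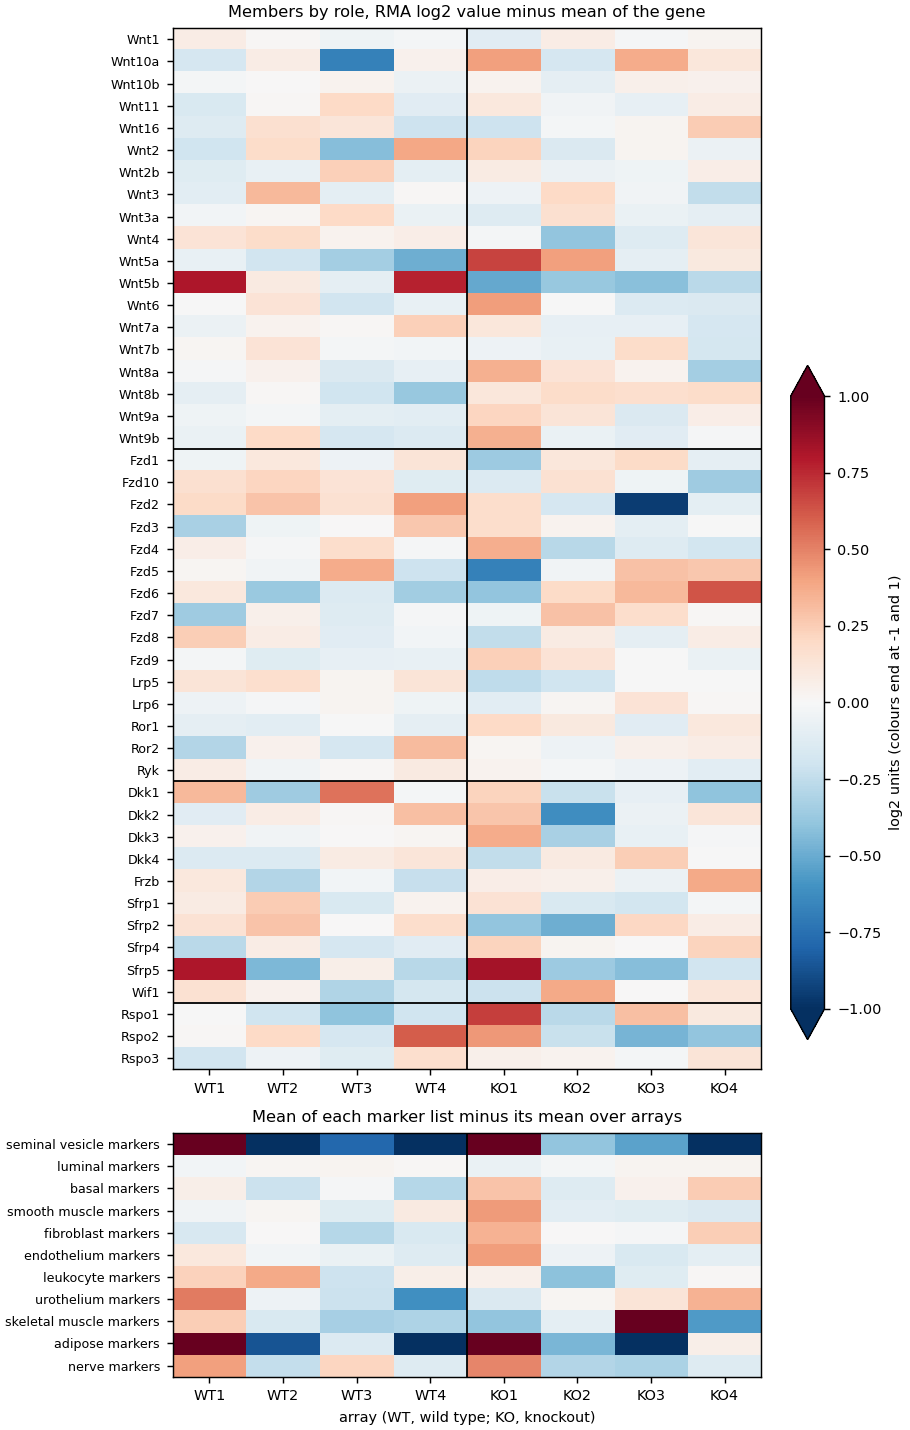
Upper panel, RMA log2 value of each member on each array minus the mean of that gene over the 8 arrays, by role (ligands, receptors, antagonists, R-spondins from top to bottom), wild-type arrays left and knockout arrays right. Lower panel, the mean of each of 11 cell type marker lists minus its mean over the arrays; colours run from blue (low) to red (high) in log2 units and end at -1 and 1, and arrays 1 of both genotypes stand out for seminal vesicle and adipose markers and for *Sfrp5*.

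Fibroblast and basal epithelial markers tended to higher values in knockout prostate, and leukocyte markers to lower values. The 11 fibroblast markers were all higher on average in the knockout, 4 past an unadjusted p of 0.05 (6.27% of all genes were higher at that threshold), with a median log2 fold change of 0.27, and their list mean ranged from 10.53 to 10.89 in knockout and from 10.26 to 10.54 in wild-type prostate. Of 10 basal epithelial markers, 9 had a higher mean, 4 at that threshold, with a median log2 fold change of 0.26 and list means from 10.02 to 10.44 and from 9.87 to 10.21. Without knockout array 1 and wild-type array 1, a comparison chosen after seeing the data, 3 fibroblast and 2 basal markers were past that threshold, and the medians were 0.17 and 0.21. All 6 seminal vesicle markers had a higher mean, none past that threshold, with a median of 0.52. These 6 genes were highest together on arrays 1 of both genotypes, so they are not 6 separate observations. Their list mean ranged widely, from 9.04 to 13.81 in knockout and from 7.88 to 14.15 in wild-type prostate. Its highest value was on wild-type array 1 and its lowest on wild-type array 2. With both arrays 1 left out, all 6 stayed higher, 1 past that threshold, with a median of 0.90. Luminal markers ranged from 13.38 to 13.47 and from 13.42 to 13.47, and smooth muscle markers from 12.30 to 12.87 and from 12.33 to 12.53. Leukocyte markers had a list mean of 7.90 to 8.37 in knockout and 8.11 to 8.69 in wild-type prostate, with 1 of 8 higher. Their median log2 fold change was -0.18, and 1 marker was lower at an unadjusted p under 0.05 (8.49% of all genes were). Skeletal muscle markers ranged from 7.25 to 9.42 and from 7.48 to 8.06. Of these 6 markers 5 had a higher mean, none past that threshold, with a median of 0.15. List means of endothelial markers were 7.55 to 8.12 and 7.57 to 7.81, of urothelial markers 8.21 to 8.70 and 7.74 to 8.87, and of nerve markers 7.43 to 8.23 and 7.50 to 8.15. *Upk3b*, of the urothelial list, was singled out after its values were seen. It had a log2 fold change of 1.73 with no overlap between the genotypes (limma, unadjusted p = 0.0115, adjusted p = 0.280). Of the 6 urothelial markers, 3 were higher on average, and the median log2 fold change of that list was 0.015. The part of any of these cells in the *Wnt5a*, *Wnt5b*, *Sfrp2* and *Sfrp4* values was not tested.

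The rest of the pathway was read from 4 gene lists with 81 measured genes of 86. None of the 81 passed an adjusted p of 0.05 in limma, and at an unadjusted p under 0.05, 6 had a higher (7.41%) and 5 a lower mean (6.17%), beside 6.27% and 8.49% of all genes. Their median log2 fold change was -0.01, as over all genes.

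Of 18 measured genes for Wnt release and the cell surface, 11 were higher on average in the knockout. At an unadjusted p under 0.05, 3 were higher (16.7%, beside 6.27% of all genes) and none was lower (beside 8.49%). *Sulf1*, a sulfatase that trims heparan sulfate and so alters ligand binding at the surface, read 11.89, 11.79, 11.79 and 12.00 on the knockout arrays and 11.52, 11.66, 11.50 and 11.63 on the wild-type arrays. The genotypes did not overlap, and the log2 fold change was 0.29 (limma unadjusted p = 0.00722, adjusted p = 0.258). *Tspan12*, a tetraspanin of the Norrin and Frizzled-4 complex, gave 0.47 on the log2 scale without overlap (unadjusted p = 0.0221). *Reck*, a membrane-anchored cofactor for Wnt7 ligands, had one of 0.30 with overlap (unadjusted p = 0.0320). The median of the list was 0.08.

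In the beta-catenin cascade, all 31 listed genes were measured, with a median of -0.03. Of these, 2 were higher (6.45%, beside 6.27% of all genes) and 2 lower (6.45%, beside 8.49%) at an unadjusted p under 0.05. *Csnk1g1*, a casein kinase that can phosphorylate Lrp6, had a log2 fold change of 0.25, and *Tle4*, a corepressor of TCF factors, one of 0.33. *Tle2*, of the same corepressor family, had one of -0.26. *Dvl1*, a Dishevelled scaffold below the Frizzled receptors, read from 13.13 to 13.27 on the knockout arrays and from 13.31 to 13.49 on the wild-type arrays, with no overlap and a log2 fold change of -0.18 (limma unadjusted p = 0.0320, adjusted p = 0.347). *Tle4* lies outside the 3 genes with the smallest p of its list and was named after its value was seen.

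The 14 measured genes that beta-catenin is known to induce had a median of -0.02. Of them, 2 had a lower mean at an unadjusted p under 0.05 (14.3%, beside 8.49% of all genes) and none a higher one (beside 6.27%). *Nkd2*, a feedback inhibitor that binds Dishevelled, read 7.07, 7.01, 7.21 and 7.25 on the knockout arrays and 7.35, 7.49, 7.39 and 7.70 on the wild-type arrays. All knockout arrays lay below all wild-type arrays, and the log2 fold change was -0.35 (95% confidence interval -0.55 to -0.14, limma unadjusted p = 0.00485, adjusted p = 0.237). *Sp5*, a transcription factor gene used as a readout of beta-catenin signalling, read 10.17, 10.81, 10.83 and 11.22 on the knockout arrays and 11.53, 11.28, 11.62 and 11.09 on the wild-type arrays. Only knockout array 4 reached the wild-type range, and the log2 fold change was -0.62 (limma unadjusted p = 0.0229, adjusted p = 0.318). *Jag1*, a Notch ligand, differed by 0.15 on the log2 scale (unadjusted p = 0.0522). *Axin2*, a widely used readout, differed by -0.02 (95% confidence interval -0.20 to 0.15) and *Lef1* by 0.03, both named after their values were seen.

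In the beta-catenin-independent branch, 18 of 20 listed genes were measured, with a median of -0.0063. *Rock1*, a kinase that acts on the cytoskeleton, read 12.47, 12.62, 12.25 and 12.43 on the knockout arrays and 12.01, 12.17, 12.10 and 12.12 on the wild-type arrays. The genotypes did not overlap, and the log2 fold change was 0.34 (95% confidence interval 0.17 to 0.52, limma unadjusted p = 0.00242, adjusted p = 0.209). *Invs*, the gene of inversin, gave -0.28 on the log2 scale without overlap (unadjusted p = 0.0427), and *Camk2d*, a calcium-dependent kinase, one of 0.27 with overlap (unadjusted p = 0.0607).

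**Figure D5:**
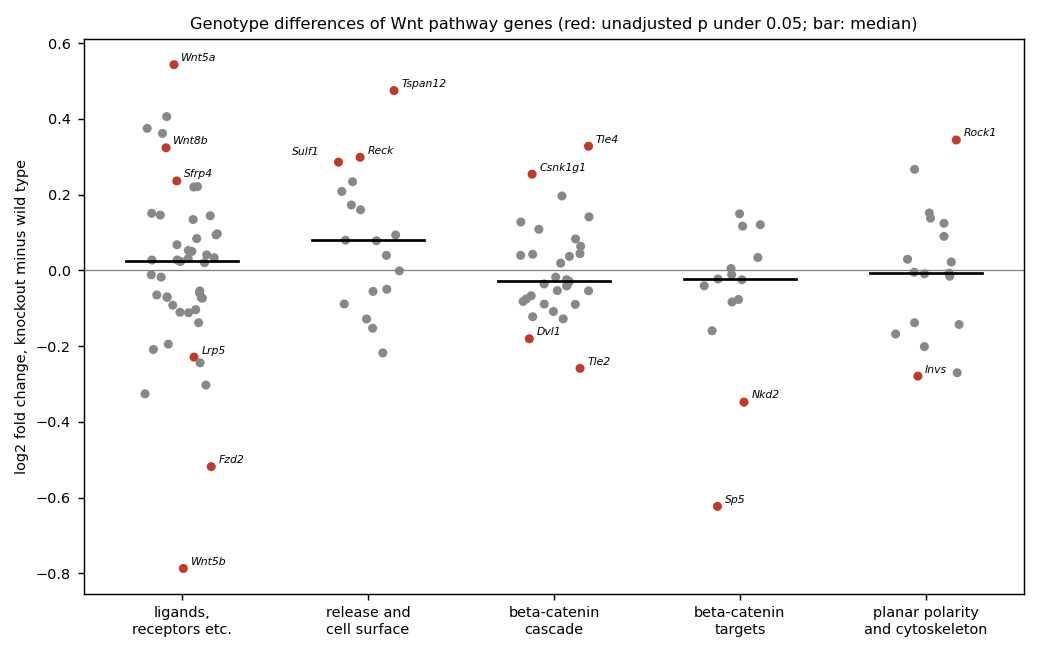
Log2 fold change (knockout minus wild type, y axis, log2 units) of the 47 members and of the measured genes of 4 further Wnt pathway lists, 1 point per gene, with the median of each list as a black bar. Red points have an unadjusted p under 0.05 and are named; none passed the adjusted threshold, and the medians lie between -0.03 and 0.08.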

How the data were processed

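The deposited values are on the log2 scale and were made by the authors with RMA (background subtraction, quantile normalization and a summary per probe set), in a version not given in the sources used here. Detection calls were not used, and precision is limited by there being 4 arrays per genotype. Through the platform annotation 34945 probe sets had 1 gene symbol, 932 several and 9160 none, and all 47 members matched RefSeq by gene ID. Control probe sets (64) were left out. A linear model with genotype and array day was fitted to each of the other 45037 probe sets with limma 3.58.1 (lmFit and eBayes in R 4.3.3), and 2-sided p-values were adjusted over all of them (Benjamini-Hochberg). The p-values measure the spread between single mice. The fit was tested on simulated data. The members, the 4 pathway lists and the 11 marker lists were chosen with earlier results of these data known. Values on every array were given for *Wnt5a*, for members with an unadjusted p under 0.05 and for the 2 brightest of each role, and up to 3 genes with the smallest p were named per pathway list. Alternatives were ANOVA without array day, after the study's methods, limma without array day, a replicate block, an intensity trend, array weights, median centring, quantile and cyclic loess normalization, filters at a mean of 5 and 7, single array days, averaged probe sets and leaving out arrays. Upstream windows came from RefSeq (GRCm38.p6), and 16 members had no window in the table used.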

Additional observations from a re-analysis of the deposited data

Results flagged for a closer look

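Within each genotype, the highest and the lowest array of every member were compared with the rest of that group by Dixon's criterion for 4 arrays. Of 94 groups tested, 2 passed, and chance flags about 1 in 20 groups. *Wnt10b* read 5.46 on knockout array 2, below the other knockout arrays at 5.58 to 5.60. *Wnt2b* read 4.46 on wild-type array 3, above the other wild-type arrays at 4.10 to 4.14. Neither gene had an unadjusted p under 0.05 between the genotypes, and the *Wnt2b* values lie near background.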

How the results depend on the processing

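No member probe set passed the adjusted threshold in any of the 22 alternatives to the reported analysis, ANOVA without array day included, and the smallest adjusted p of a member over them was 0.0941 (*Wnt5b*, probe sets with a mean of at least 7). *Wnt5b* kept its direction and an unadjusted p under 0.05 in 22 of 22 (log2 fold change -1.13 to -0.44, adjusted p 0.0941 to 0.453), *Wnt5a* in 21 (adjusted p 0.144 to 0.841), *Lrp5* in 20, *Wnt8b* in 18 of 20, *Fzd2* in 12 and *Sfrp4* in 10 of 21. The number of members with a higher mean at an unadjusted p under 0.05 was 5 with median centring, 1 among probe sets with a mean of at least 7, and 2 to 6 when single arrays were left out, with the highest number without knockout array 3. The number with a lower mean was 2 to 5 when single arrays were left out, with 5 without knockout array 1, and 6 without knockout array 1 and wild-type array 1 together. The share of all genes at that threshold is not given for any alternative, so such counts have no background beside them. The median log2 fold change of the members was -0.054 among probe sets with a mean of at least 7, against -0.034 over all genes. When single arrays were left out it was -0.02 to 0.06, against -0.0205 to -0.00821 over all genes. *Wnt2* turned to -0.046 with array weights, -0.11 on day 1 alone and -0.21 without arrays 1 of both genotypes, and ranged from -0.12 to 0.17 when single arrays were left out, below zero without knockout array 1 (-0.073) or wild-type array 1 (-0.062) or 3. *Lrp6* turned to -0.053 on day 2 alone and -0.067 as the mean of its probe sets, and ranged from -0.0095 (without knockout array 3) to 0.076 when single arrays were left out. *Rspo2* turned to 0.089 on day 2 alone. The filters leave fewer probe sets, and leaving out arrays leaves fewer samples, by construction; the cause of the other shifts was not tested. Replicate numbers did not pair the arrays (correlations of deviations between same-numbered arrays 0.34, 0.17, 0.04 and -0.01, and only knockout array 1 correlated best with its own number). With a replicate block, 20 probe sets were called on the whole array in place of 50, and 4 members were higher and 4 lower at an unadjusted p under 0.05, with a median of 0.02.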
